A study of Arabidopsis thaliana with 6 samples.

Results

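The transcripts described here are those read from the chloroplast's own genome in Arabidopsis thaliana leaves, measured after infiltration of aphid saliva. They were chosen by a rule on annotation, set with earlier results of these data known. The rule takes each Affymetrix ATH1 probe set whose listed gene is 1 gene of the plastid genome (locus names starting ArthCp in RefSeq). This gave 69 probe sets for 69 genes among the 15177 probe sets tested. Another 8 probe sets list 2 copies of a plastid gene, and they stayed outside the rule. The members were grouped by symbol into 15 ribosomal protein genes (rpl and rps), 4 RNA polymerase genes (rpo), 5 photosystem I genes (psa), 15 photosystem II genes (psb), 6 cytochrome b6f genes (pet), 6 ATP synthase genes (atp), 10 genes of the NADH dehydrogenase-like complex (ndh) and 8 others.

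Saliva samples came from wild-type Col-0 leaves that received, by needleless syringe, a sucrose and amino acid diet after 24 h of feeding by the green peach aphid, Myzus persicae (a red lineage adapted to tobacco and raised on cabbage). The labels give 50 feeding aphids per 50 µL and collected diet from 20 aphids. Control samples came from Col-0 leaves infiltrated with the same diet from cups with 0 aphids, so infiltration and diet are shared by both groups. Leaves were taken after 24 h from plants 3 weeks old, and per the labels saliva and control plants shared pots. Each of the 6 samples pooled 18 leaves from 6 plants and was read on 1 array, and the experiment was done 3 times, which gives 3 saliva arrays and 3 control arrays paired by repeat. The saliva diet holds whatever aphids left in or took from it, and untreated leaves were not among the samples.

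The plastid genome keeps a small set of genes from the organelle's bacterial ancestor. Most encode core subunits of the thylakoid complexes or parts of the plastid's own gene expression machinery, while the remaining subunits of the same complexes are encoded in the nucleus and imported. The genes are transcribed in clusters by a bacterial-type polymerase, whose core is encoded by the rpo genes, and by a nuclear-encoded phage-type polymerase. Plastid mRNAs lack the stable poly(A) tails of nuclear mRNAs, and short tails mark plastid RNA for decay. The labels do not name the primer used for labelling, so which plastid RNA molecules the arrays favoured is not known here.

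Values are intensities normalized by the authors on a linear scale, and differences are log2 saliva minus control within a repeat. Median intensities over all probe sets were between 139.2 and 146.8 on the 6 arrays. Levels of different probe sets are not compared, since each probe set has its own response. By repeat, in the order 1, 2, 3, the 25S ribosomal RNA control had a saliva minus control difference of 0.68, 0.19 and 0.024. The 3′ minus 5′ gap of control transcripts, a reading of RNA integrity, differed by -0.013, 0.11 and -0.012 (mean of 6 readings). Of 5 leaf mesophyll markers, 2 could be read, LHCB4.1 and PSAN, with mean log2 levels of 14.73 and 14.21 in saliva leaves, against 14.80 and 14.36 in control leaves. Of 13 markers for phloem, guard cells, trichomes, xylem and epidermis, 1 could be read, FMA, a guard cell factor, at 6.07 in saliva leaves and 5.88 in control leaves.

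Across the plastid genome the median difference was -0.075, against -0.00056 over all probe sets tested. The ribosomal protein genes had the lowest group median, -0.30, and the polymerase genes followed with -0.17. Without replicate 1 their order turned, with -0.16 for ribosomal protein genes and -0.20 for polymerase genes. Photosystem I, ATP synthase and the mixed group had medians of 0.011, 0.018 and 0.015, and photosystem II, cytochrome b6f and ndh genes had -0.055, -0.088 and -0.063. Of these 6 medians, 5 changed sign with 1 pair left out: psa reached -0.026, atp -0.0090 and the mixed group -0.10 without replicate 3, psb 0.0096 without replicate 2 and ndh 0.025 without replicate 1. That of pet was -0.018 without replicate 2, and that of ndh was -0.15 without replicate 3. None of the 69 passed the paired limma test in either direction (adjusted p under 0.05), and neither did any of the 15177 probe sets (0.0% higher, 0.0% lower). The lowest adjusted p among members was 0.358. Before adjustment, p was under 0.05 for 9 members with a negative difference and for 0 with a positive one, against 5.44% and 5.59% of all probe sets. At a mean log2 level of 10 or more, 6 of 52 members had such a negative difference, against 165 of 1905 probe sets.

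**Figure D1:**
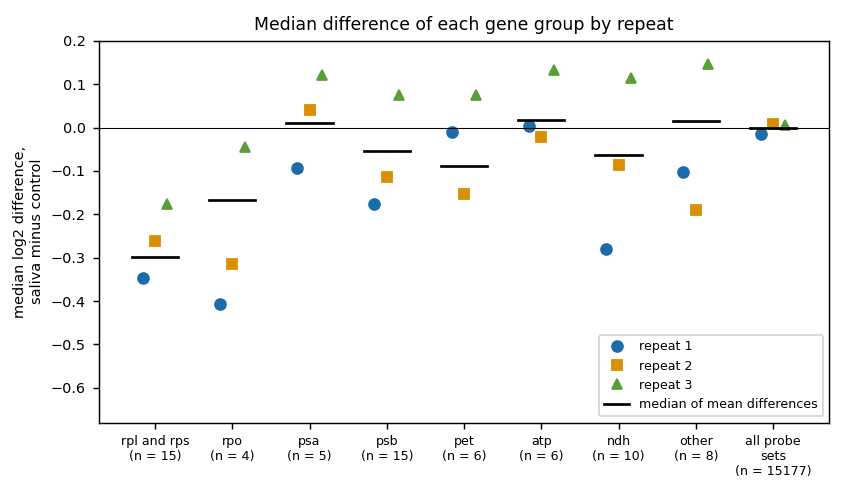
Median log2 difference (saliva minus control, y axis) of each group of plastid genes and of all 15177 probe sets tested (x axis), with 1 symbol per repeat and a bar for the median of the mean differences. The rpl and rps group lies at -0.18 or lower in each repeat, and repeat 3 lies above 0 in each of the other groups of plastid genes except rpo.

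Direction differed between repeats. A mean difference below 0 was found for 48 of 69 members, against 50.2% of all probe sets. The members' median difference was -0.21, -0.13 and 0.048 in repeats 1, 2 and 3. Of the 69 members, 49, 47 and 25 lay below 0 in these repeats, against 53.2%, 41.9% and 49.1% of all probe sets. In all 3 repeats 15 members lay below 0, which is 21.7%, against 15.6% of all probe sets and 23.8% of the 1905 probe sets with a mean log2 level of 10 or more. Above 0 in all 3 repeats were 6 members, atpH, petA, psaA, psaJ, psbJ and atpB, against 16.7% of all probe sets. Quantile normalization left 2 members in that count, and centring each array on its median left 0. The shares of all probe sets above 0 after these steps are not given here.

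**Figure D2:**
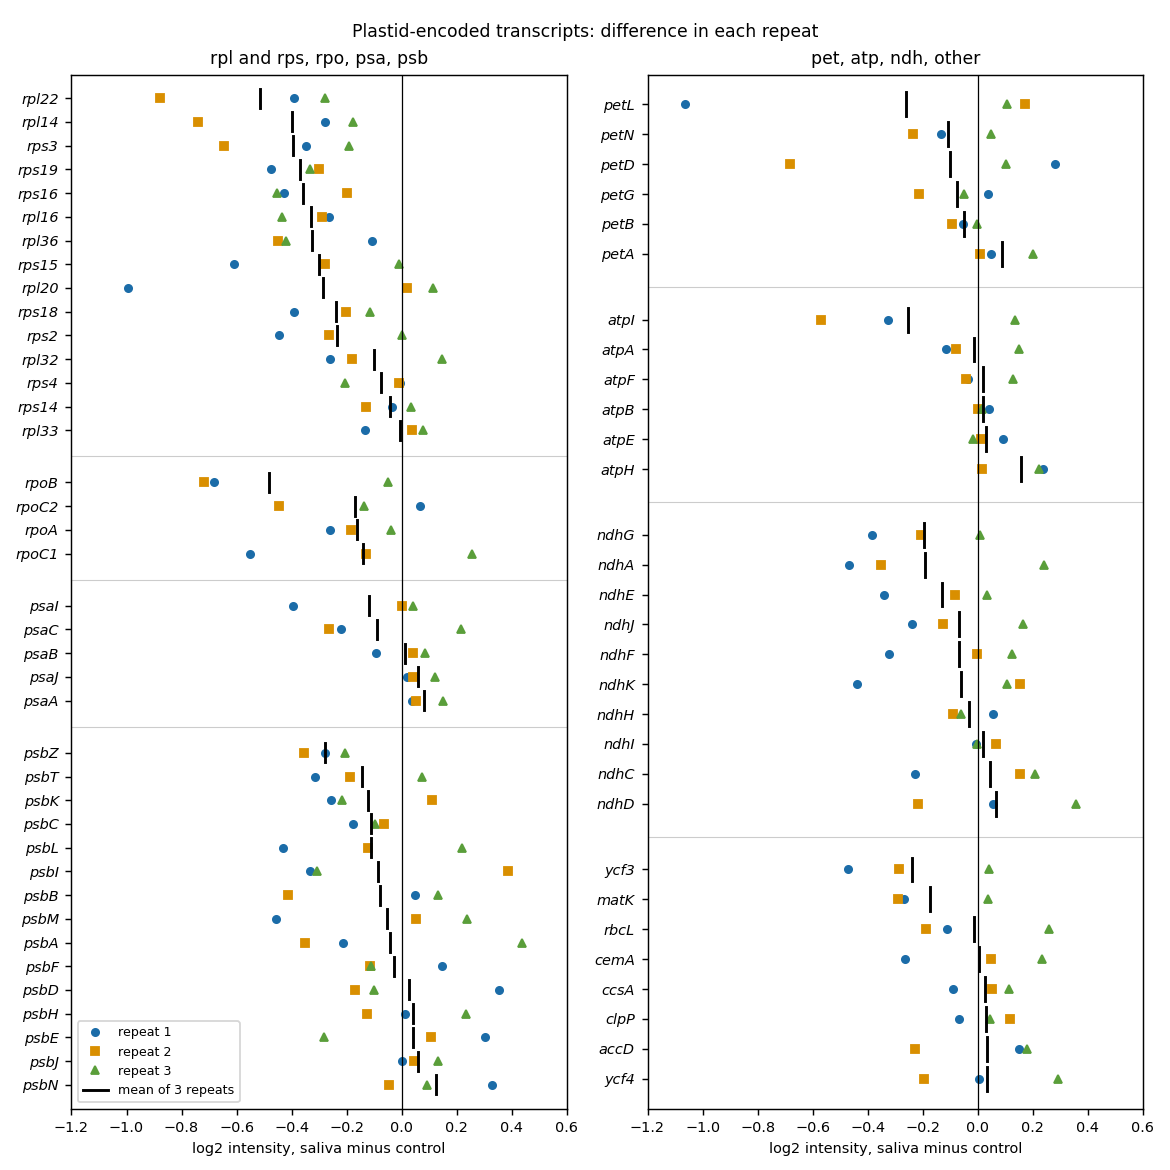
Log2 difference (saliva minus control, x axis) of each of the 69 members (y axis) in repeats 1, 2 and 3, with a bar for the mean of the 3 repeats, in 8 groups separated by lines. The upper 8 rows of the rpl and rps block lie to the left of 0 in each repeat, whereas most psb, pet and ndh rows scatter on both sides.

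Ribosomal protein genes encode parts of the plastid's bacterial-type ribosome, which makes the plastid-encoded photosynthesis proteins. All 15 had a mean difference below 0, against 50.2% of all probe sets, and 13 of 15 did without replicate 1. Their means ran from -0.52 for rpl22 to -0.0073 for rpl33, and rpl33 turned to 0.0021 after quantile normalization. Of all probe sets 15.6% lay below 0 in all 3 repeats, and 23.8% of those with a mean log2 level of 10 or more. Of the 15 ribosomal protein genes 10 did so, which is 66.7%. Among small-subunit genes this held for 6 of 8, and among large-subunit genes for 4 of 7. None passed the test, and 7 of the 15 had an unadjusted p under 0.05 with a negative difference, against 5.44% of all probe sets. Among the 1905 probe sets with a mean log2 level of 10 or more, 165 had one. Of these 7, rps19 and rpl36 were no longer under 0.05 in the fit without the replicate block, at unadjusted p of 0.157 and 0.0782 (limma). The group's median was -0.35, -0.26 and -0.18 in repeats 1, 2 and 3, and without replicate 1 the median of mean differences was -0.16. The other 54 members had a median of -0.052, with 5 below 0 in all 3 repeats. That is 9.26%, a smaller share than the 15.6% of all probe sets.

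Of these 10 genes, 6 lie in 1 stretch of neighbouring genes, the cluster that runs from rpl23 to rpoA and corresponds to the ribosomal protein operons of bacteria. Of its genes 7 were measured, 6 of them for ribosomal proteins, and all 7 lay below 0 in each repeat, with a median of -0.37 and repeat medians of -0.28, -0.45 and -0.28. After quantile normalization 6 of the 7 did. Of all probe sets 15.6% did before it and 19.6% after it. As neighbours transcribed together the 7 genes are not independent readings. Without replicate 2 the median was -0.27.

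In the order of transcription the first measured member was rps19, a small-subunit protein gene, with 3847, 4403 and 2847 in saliva leaves, against 5346, 5424 and 3584 in control leaves. Its difference was -0.37 ± 0.093 (SD, n = 3 pairs; limma adjusted p = 0.358). Each saliva array lay below its own control, but the groups overlapped: both arrays of repeat 3 were the lowest of their group.

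The large-subunit gene rpl22 had 3487, 2617 and 3137 in saliva leaves, against 4578, 4813 and 3803 in control leaves. The groups did not overlap, and the widest gap was in repeat 2. Its difference, -0.52 ± 0.32 (SD, n = 3 pairs; limma adjusted p = 0.392), was the lowest of the 69 members, and it was -0.34 without replicate 2.

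For rps3, whose product sits where mRNA enters the small subunit, intensities were 3978, 3435 and 3438 in saliva leaves, against 5059.8, 5369.7 and 3929 in control leaves. The highest saliva array was just above the lowest control array. The difference was -0.39 ± 0.23 (SD, n = 3 pairs; limma adjusted p = 0.404).

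Next in the cluster, the large-subunit gene rpl16 had 1189, 1126 and 1002 in saliva leaves, against 1428, 1375 and 1354 in control leaves. Its groups did not overlap, with a difference of -0.33 ± 0.092 (SD, n = 3 pairs; limma adjusted p = 0.364). In the authors' deposited table rpl16 is the 1 member with a paired false discovery rate under 0.05, at 0.0431 with a fold of 0.798, where 1.64% of all probe sets are listed under 0.05 with a fold below 1 and 1.41% with a fold above 1. The lowest unpaired rate of a member in the authors' deposited table is 0.265, also for rpl16.

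The large-subunit gene rpl14 had 564, 493 and 617 in saliva leaves, against 685, 825 and 697 in control leaves, again without overlap. Its difference was -0.40 ± 0.30 (SD, n = 3 pairs; limma adjusted p = 0.433), and -0.23 without replicate 2. For rpl36, which encodes a very small large-subunit protein, intensities were 2312, 2134 and 1681 in saliva leaves, against 2489, 2915 and 2250.4 in control leaves. Its groups overlapped, at -0.33 ± 0.19 (SD, n = 3 pairs; limma adjusted p = 0.415). At the end of the cluster rpoA, the polymerase alpha subunit, had 3104, 3629.9 and 3517 in saliva leaves, against 3722, 4123 and 3614 in control leaves. That difference was the smallest of the 7, -0.16 ± 0.11, and the highest saliva array lay just above the lowest control array. In repeat 3 it was at -0.039.

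**Figure D3:**
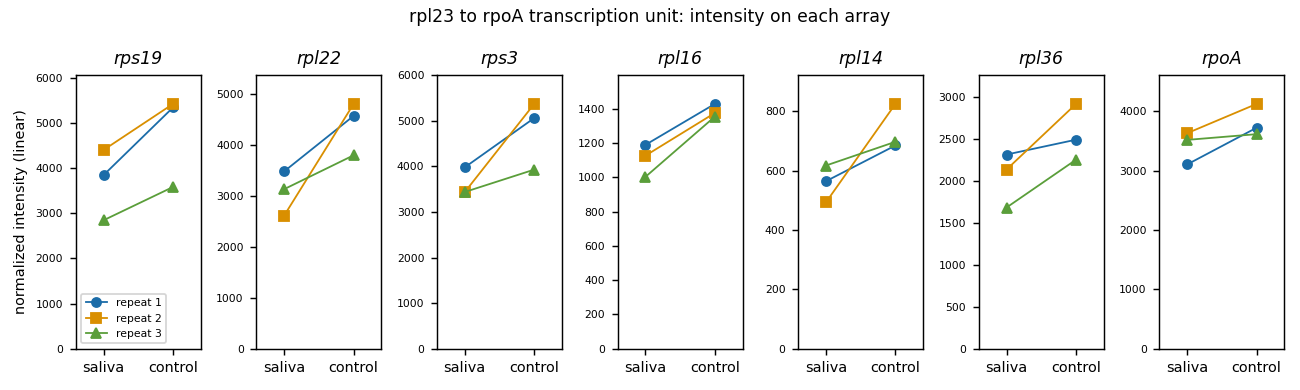
Normalized intensity (linear, y axis from 0, a scale of its own for each gene) of the 7 measured genes of the rpl23 to rpoA cluster in saliva and control leaves (x axis), with lines joining the arrays of 1 repeat. Each line is higher at its control end, and the repeat 3 lines of rps19, rpl16 and rpl36 lie lowest at both ends.

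Of all probe sets, 8.58% had saliva arrays entirely below control arrays, and among probe sets with a mean log2 level of 10 or more this was 15.0%. Among members it held for 4 of 69, rpl22, rpl14, rpl16 and rps16, all ribosomal protein genes. At a mean log2 level of 10 or more it held for 2 of 52 members. Both shares of members are below those of the probe sets. The opposite held for 1 member, atpH, against 7.66% of all probe sets.

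Ribosomal protein genes outside the cluster were less uniform. The 9 of them had a median of -0.23, with repeat medians of -0.39, -0.18 and 0.0029. Of the 9, 4 lay below 0 in all 3 repeats, against 15.6% of all probe sets. The small-subunit gene rps16 had 209, 262 and 202 in saliva leaves, against 281, 300.3 and 277 in control leaves. It came to -0.36 ± 0.14 (SD, n = 3 pairs; limma adjusted p = 0.366), without overlap of the groups. In rps15, another small-subunit gene, saliva arrays had 523, 628 and 579.8, against 797, 762 and 584 in control arrays, so repeat 3 showed almost no gap. The large-subunit gene rpl20 had 227, 386 and 348 in saliva leaves, against 452, 381 and 322 in control leaves, with a mean of -0.29 ± 0.61. The gap lay in repeat 1, and without replicate 1 the difference was 0.067. Of the remaining 6, rps18, rps2, rpl32, rps4, rps14 and rpl33, mean differences ran from -0.24 for rps18 to -0.0073 for rpl33, and rps14 was dim, with 19.5 to 19.9 in saliva leaves and 19.5 to 21.4 in control leaves.

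The 4 measured rpo genes encode the core of the bacterial-type plastid polymerase, which transcribes most photosynthesis genes. All 4 had means below 0, against 50.2% of all probe sets. Below 0 in each repeat were 2, rpoB and rpoA, against 15.6% of all probe sets. The beta subunit gene rpoB had 74.4, 65.4 and 67.8 in saliva leaves, against 119.2, 107.5 and 70.2 in control leaves. The controls of repeats 1 and 2 stood high and that of repeat 3 was close to the saliva arrays, and the difference was -0.48 ± 0.37 (SD, n = 3 pairs; limma adjusted p = 0.423). Its neighbours in the same cluster were at -0.17 ± 0.26 for rpoC2 and -0.14 ± 0.40 for rpoC1, where repeat 3 was at 0.26. Without replicate 1 the rpoC1 difference was 0.063. The rpoB cluster and accD, which encodes a subunit of the acetyl-CoA carboxylase of fatty acid synthesis, are known for transcription by the phage-type polymerase. accD was at 0.033 ± 0.23, with 1936, 1777 and 2159 in saliva leaves, against 1745, 2083 and 1906 in control leaves.

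**Figure D4:**
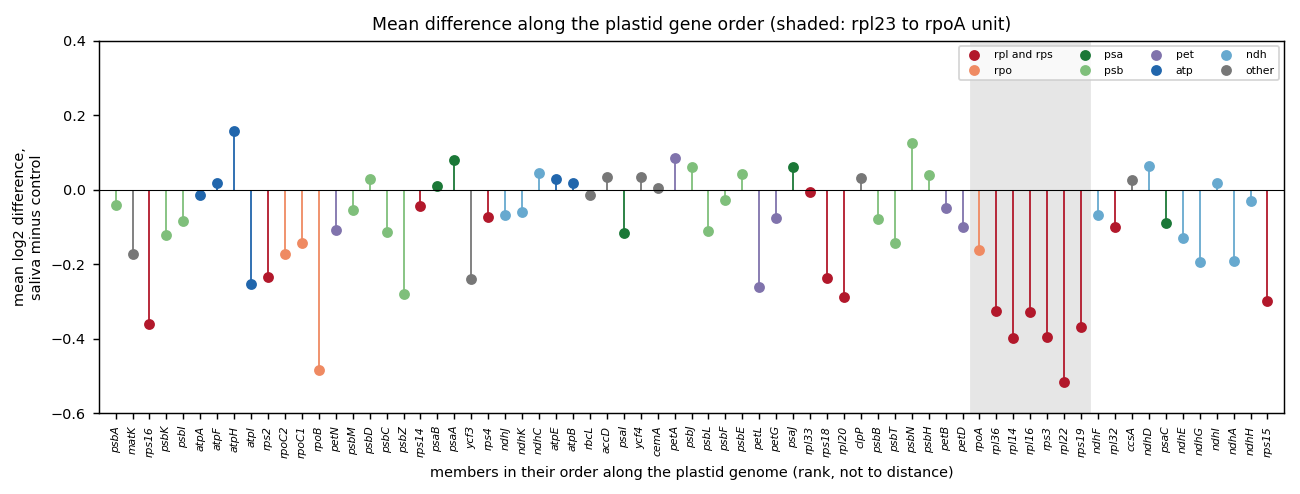
Mean log2 difference (saliva minus control, y axis) of the 69 members in their order along the plastid genome (x axis, by rank), coloured by gene group, with the rpl23 to rpoA cluster shaded. The 7 shaded genes form the longest run of values below -0.15, and outside it the low values of rps16, rpoB and psbZ stand beside neighbours nearer to 0.

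Of the 13 other clusters with 2 or more measured genes, 10 held means on both sides of 0 and 3 (psbK-psbI, rpoB-rpoC1-rpoC2 and atpB-atpE) on 1 side. Over all 99 gene pairs that share a transcription unit, the rpl23 to rpoA cluster included, the median gap between mean differences was 0.12. Over the 2247 gene pairs of different units it was 0.14. In the cluster rps2-atpI-atpH-atpF-atpA, rps2 and atpI were at -0.23 ± 0.23 and -0.25 ± 0.36, while atpH, atpF and atpA were at 0.16, 0.017 and -0.014. In the cluster petL-petG-psaJ-rpl33-rps18 the means ran from -0.26 for petL to 0.061 for psaJ.

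Photosystem I reduces ferredoxin at the end of the electron transport chain. Its reaction centre gene psaA had 10084.8, 11929 and 11254.5 in saliva leaves, against 9822, 11501 and 10135.5 in control leaves. Each saliva array of psaA was above its own control, at 0.081 ± 0.061, though the groups overlapped. The partner gene psaB was at 0.011 ± 0.093. Those of psaJ, psaC, which holds iron-sulphur clusters, and psaI were 0.061, -0.089 and -0.12. Without replicate 1 psaI was at 0.021.

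Photosystem II splits water, and psbA encodes its D1 protein, which light damages and which is replaced all the time. The psbA probe set had 9832, 12495 and 12854 in saliva leaves, against 11386, 15949 and 9485 in control leaves. Repeats 1 and 2 lay below 0 and repeat 3 above it, at 0.44, for a mean of -0.042 ± 0.42. The lowest of the group was psbZ, a small subunit gene, with 3353, 3935 and 4202 in saliva leaves, against 4067, 5034 and 4843 in control leaves. It was below its control in each repeat, at -0.28 ± 0.075 (SD, n = 3 pairs; limma adjusted p = 0.392), and so was psbC, which encodes the inner antenna protein CP43, at -0.11 ± 0.057. The highest was psbN, at 0.12 ± 0.19, a gene on the strand opposite to psbB and needed for assembly. Without replicate 1 psbN was at 0.023, below psbM, psbJ, psbH, psbL, psbA and psbI. The other 11 psb genes, among them psbD for the D2 protein at 0.028 and psbB for the antenna protein CP47 at -0.078, had means from -0.14 for psbT to 0.060 for psbJ. The 20 photosystem genes together had a median of -0.048, which was 0.022 without replicate 1 and 0.0039 without replicate 2.

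The cytochrome b6f complex links the photosystems. petA, for cytochrome f, was above its control in each repeat, at 0.086 ± 0.10, and petB, for cytochrome b6, was at -0.050 ± 0.044. The small subunit gene petL had 1668, 3002 and 2308 in saliva leaves, against 3485, 2666 and 2142 in control leaves. Its mean was -0.26 ± 0.69, and without replicate 1 it was 0.14. In repeat 1 the control array was the highest of its group and the saliva array the lowest of its own. petN, petG and petD had -0.11, -0.075 and -0.10, and petD was dim, with 11.9 to 16.5 in saliva leaves and 11.1 to 26.6 in control leaves.

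ATP synthase makes ATP from the proton gradient. Its gene atpH, for the membrane ring subunit, had 9870.4, 9657 and 10844 in saliva leaves, against 8383, 9545 and 9289.9 in control leaves, without overlap. It was the highest of the 69 members, at 0.16 ± 0.12 (SD, n = 3 pairs; limma adjusted p = 0.570). The catalytic beta subunit gene atpB was at 0.019 ± 0.019 and turned to -0.030 after quantile normalization, and atpE, for the epsilon subunit, was at 0.029. The membrane subunit gene atpI had 314, 306 and 346 in saliva leaves, against 394, 454 and 314 in control leaves.

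The ndh complex feeds electrons back into the chain around photosystem I. Of its 10 measured genes 0 lay below 0 in all 3 repeats and 0 above it, against 15.6% and 16.7% of all probe sets. The group's repeat medians were -0.28, -0.087 and 0.12. The widest spread in the controls was that of ndhA, with 5029, 5278 and 5139.5 in saliva leaves, against 6954, 6729 and 4346 in control leaves. The saliva arrays of ndhA lay close together between the upper and lower controls, at -0.19 ± 0.38. ndhG had the lowest mean, also -0.19, and ndhD the highest, 0.065 ± 0.29, which was -0.081 without replicate 3. ndhF was dim, with 5.94 to 6.94 in saliva leaves and 6.37 to 7.43 in control leaves.

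Among the other 8 genes, rbcL, for the large subunit of Rubisco, the enzyme that fixes CO2, had 1392, 1456 and 1702 in saliva leaves, against 1505, 1658 and 1422 in control leaves. Its mean was -0.014 ± 0.24. ycf3, an assembly factor of photosystem I, had the lowest value of these genes, -0.24 ± 0.26, and ycf4, another assembly factor, the highest, 0.034 ± 0.24, which was -0.095 without replicate 3. matK, an intron maturase, was at -0.17, and clpP, a protease subunit, ccsA, for cytochrome c assembly, and cemA, an envelope membrane protein, were at 0.031, 0.025 and 0.0055. By known polymerase use, the 27 genes set down as transcribed by the bacterial-type polymerase had a median of -0.055, with repeat medians of -0.093, -0.092 and 0.093. The 4 of the phage-type polymerase, accD and the rpoB cluster, had -0.16, with repeat medians of -0.24, -0.34 and 0.064. The other members, all ribosomal protein genes among them, were given no class.

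Repeats differed within both treatments. Repeat 2 had the highest value in both saliva and control leaves for 28 of the 69 members, which is 40.6%, against 8.52% of all probe sets. Repeat 3 had the lowest in both for 18, which is 26.1%, against 16.0% of all probe sets. In control leaves 65 of 69 members were lower in repeat 3 than in repeat 2, with a median gap of -0.24, and in saliva leaves 46 were, with a median gap of -0.067. The range over the 3 controls was wider than the mean saliva difference for 64 of 69 members, and for 11465 of the 15177 probe sets. In the labels the raw file names set repeat 1 apart from repeats 2 and 3, and within repeats 2 and 3 the members' median difference was -0.024. No member passed the test, and neither did any other probe set. A general fall in plastid transcripts was not shown, as the members were not tested as a set. Their repeat medians were -0.21, -0.13 and 0.048. For any lower value, fewer plastids or plastid genomes per leaf and less RNA from each cannot be told apart in these samples. Whether the 25S values above played a part was not tested.

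**Figure D5:**
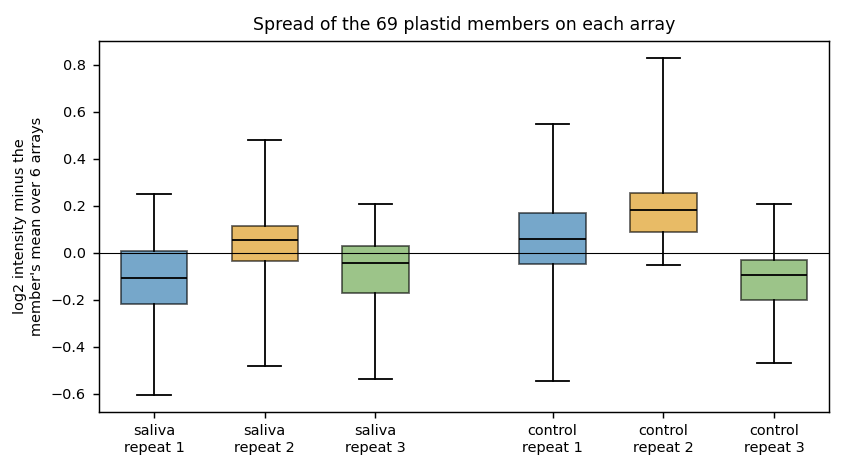
Log2 intensity of the 69 members minus each member's own mean over the 6 arrays (y axis), for the 3 saliva and 3 control arrays (x axis), as boxes from the lower to the upper quartile with the median as a line and whiskers to the lowest and highest member. The medians are -0.11, 0.052 and -0.046 for saliva and 0.059, 0.18 and -0.096 for control in repeats 1, 2 and 3, so the control array of repeat 2 is highest and that of repeat 3 lies below its saliva array.

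Mean differences were small among the brightest probe sets. The 8 members with a mean log2 level of 14 or more (psaB, psaJ, psbM, petB, atpA, atpB, atpE and ndhI) had mean differences between -0.055 and 0.061, while the highest log2 value on an array was between 15.60 and 15.75. Single repeats could lie farther out, as for psbM, a small photosystem II subunit gene, at -0.46 in repeat 1 and 0.24 in repeat 3. Without these 8 the members' median was -0.099. Whether closeness to the top of the scale plays a part was not tested.

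Nuclear genes for partners of the plastid-encoded proteins were read from a list of 54, of which 7 could be matched to 1 probe set each. None of the 7 passed the test, and 6 of them, all but PSAE1, lay below 0 in each repeat, against 15.6% of all probe sets and 23.8% of those with a mean log2 level of 10 or more, where all 7 lie. NDHL, a nuclear subunit of the ndh complex, had 2280, 2229 and 2317 in saliva leaves, against 3194, 3017 and 2877 in control leaves. Its difference was -0.41 ± 0.090 (SD, n = 3 pairs; limma adjusted p = 0.340) without overlap of the groups, and in repeat 3 it was at -0.31, where the plastid-encoded ndh genes had a median of 0.12. NDHN, another nuclear subunit, was at -0.20 ± 0.12 and PSBY, a small photosystem II protein, at -0.23 ± 0.087. PSAN, PSBW and ATPC1 were at -0.15, -0.091 and -0.076, and PSAE1 at -0.020 ± 0.14. The sigma factors that guide the plastid polymerase, its phage-type counterpart and the polymerase-associated proteins could not be matched in this way (0 probe sets), so they are not covered.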

How the data were processed

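Each of 6 samples was hybridised to 1 ATH1 array. The authors deposited normalized intensity values, 1 per probe set and array; per the submitters' processing notes GCRMA, GCOS and limma were used, with neither their roles nor versions given in the sources used here. In addition the authors' deposited table holds a fold (a ratio of group means) and paired and unpaired false discovery rates (adjusted p-values), per the file headers; 6 further columns of per-sample values were not used. Of 15236 probe sets, 59 Affymetrix controls were left out. Log2 values were taken without a pseudocount. A linear model with treatment and repeat (the replicate block) was fitted in limma 3.58.1 under R 4.3.3, and p-values were adjusted by Benjamini-Hochberg over 15177 probe sets; the fit was tested on simulated data. The pairing comes from the shared pots in the labels; deviations of paired samples from their group means correlated at -0.12, 0.15 and 0.10 across probe sets. Whether p-values cover more than the spread between these 3 repeats is not known, and the number of arrays limits precision. Genes were named through the platform annotation (1 gene for 8330 probe sets) and RefSeq, assembly TAIR10.1, used for names and gene order only. Members, gene lists and transcription units were chosen with earlier results of these data known, and lists are described by counts and medians beside all probe sets, with no test of a list. Fullest statistics went to members below or above 0 in all 3 repeats, up to 8 with the largest mean difference in each direction, and to the extremes of each group; other members were named by level and difference. Alternatives were the fit without the block, a mean log2 floor of 4, median centring or quantile normalization of the arrays, weights per array, a trend on intensity, the raw file group as a block, other thresholds and each pair left out.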

Additional observations from a re-analysis of the deposited data

How the results depend on the processing

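No member passed an adjusted p under 0.05 in any of the 11 fits, and the lowest adjusted p of a member ran from 0.194 with array weights to 0.789 without replicate 2. With no replicate block the counts past the threshold were 0 higher and 0 lower, both for members and for all probe sets, as in the paired fit. Before adjustment p was under 0.05 for 9 members, all with negative differences, and for 848 probe sets with positive and 826 with negative ones. That count of members was 5 with no replicate block, 7 after quantile normalization or with the raw file group as block, 10 with array weights or an intensity trend, and 3, 2 and 11 without replicates 1, 2 and 3. Members below 0 in all repeats kept were 13 of 69 after quantile normalization and after median centring, against 19.6% and 18.4% of all probe sets. Without replicates 1, 2 and 3 they were 20, 18 and 35 of 69, against 27.2%, 25.4% and 24.2% of all probe sets. Members above 0 in all repeats kept were 2 after quantile normalization and 0 after median centring. They were 8 to 17 with a pair left out, where fewer repeats have to concur by construction. The shares of all probe sets above 0 under these settings are not given here. The counts of members below and above 0 were chosen after seeing the data. In the rpl23 to rpoA cluster 7 of 7 were below 0 in the repeats kept, except 6 after quantile normalization, and among ribosomal protein genes the count was 9 under either of these normalizations. The members' median difference ran from -0.16 to -0.024 with a pair left out and was -0.10 as a mean over members. It was -0.075 with the probe sets of 2 gene copies added and -0.099 without the brightest members, both also chosen after seeing the data. Signs turned for 4 members with quantile normalization, 2 with median centring and 10 with array weights. Of the members given fullest statistics, these were, with quantile normalization, atpB, to -0.030, and rpl33, to 0.0021, and, with array weights, rpl33, to 0.015, ycf4, to -0.061, and ndhD, to -0.054. With a pair left out 31 of the 69 members changed sign in at least 1 fit, 6 of them given fullest statistics: rpoC1 (-0.34 to 0.063), psaI (-0.20 to 0.021), ycf4 (-0.095 to 0.15), petL (-0.48 to 0.14), rpl33 (-0.049 to 0.056) and ndhD (-0.081 to 0.21); the cause was not tested.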
